A study of Mus musculus with 36 samples.

Results

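The 9 genes described here mark monocytes recruited from blood and the macrophages of the lung interstitium: Ly6c2, Ccr2, Cx3cr1, C1qa, C1qb, C1qc, Fcgr1, Cd14 and Ms4a7. They were taken by name from the 46078 genes of the deposited tables, and all 9 were found and passed the filter on low counts, which left 16903 genes. The lungs came from female wild-type C57BL/6 mice given 1 intranasal dose of 50 μg of graphene oxide, a carbon material in thin sheets, in 5% dextrose. The sheets were ultrasmall (US), small (S) or large (L) in the study's naming, and control mice received 5% dextrose alone (D). Lungs were taken 1, 7 or 28 days later, at an age of 9, 10 and 13 weeks, so that day and age cannot be told apart. Each of the 12 combinations of material and day had 3 RNA-seq libraries, 36 in all. The labels give a range of animals per group but tie no library to an animal, so that p-values measure only the spread between these libraries. Every library was made from a mixture of lung pieces with the large airways dissected away. In such bulk tissue, fewer cells of a type and less RNA per cell cannot be told apart.

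Blood monocytes are released from bone marrow through the chemokine receptor Ccr2 and patrol vessels with the fractalkine receptor Cx3cr1. The classical, inflammatory kind carries Ly6C on its surface. In tissue, monocytes mature into macrophages that secrete C1q, the recognition molecule of the classical complement pathway, which binds antibody complexes and dying cells. In the healthy lung, C1q and Ms4a7 are associated with interstitial macrophages more than with the alveolar macrophages that first meet inhaled particles. None of these genes is exclusive: T and NK cells can carry Ly6C, Ccr2 and Cx3cr1, and neutrophils and alveolar macrophages can carry Cd14.

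C1qa, C1qb and C1qc lie side by side on the minus strand of chromosome 4 (GRCm38), at 136895917-136898803, 136880129-136886187 and 136889804-136893065, with C1qc in the middle. Ms4a7 lies on the minus strand of chromosome 19 at 11321039-11336146, among other genes of the Ms4a family of membrane proteins. The deposited tables name these 4 genes ENSMUSG00000036887 (C1qa), ENSMUSG00000036905 (C1qb), ENSMUSG00000036896 (C1qc) and ENSMUSG00000024672 (Ms4a7). Each range spans the whole gene, exons and introns together. Start regions of C1qb, C1qc and Ms4a7 are shown because Ms4a7 is the member called against dextrose and the C1q genes followed each other across libraries. Each run covers 250 bases before to 50 bases after the RefSeq start site in GRCm38.p6, read 5′ to 3′ on the gene's strand, from chr4:136886151-136886450, chr4:136892865-136893164 and chr19:11336097-11336396. Capitals mark GAGGAA, the core of the motif of the macrophage factor PU.1, and TGCTGA, the core of the element that Maf factors recognise, each searched on both strands.
C1qb: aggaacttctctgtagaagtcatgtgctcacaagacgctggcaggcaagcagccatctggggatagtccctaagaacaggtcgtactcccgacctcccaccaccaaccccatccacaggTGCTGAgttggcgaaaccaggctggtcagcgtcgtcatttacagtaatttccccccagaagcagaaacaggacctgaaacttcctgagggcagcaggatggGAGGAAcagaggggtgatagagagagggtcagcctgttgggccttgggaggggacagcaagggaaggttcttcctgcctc
C1qc: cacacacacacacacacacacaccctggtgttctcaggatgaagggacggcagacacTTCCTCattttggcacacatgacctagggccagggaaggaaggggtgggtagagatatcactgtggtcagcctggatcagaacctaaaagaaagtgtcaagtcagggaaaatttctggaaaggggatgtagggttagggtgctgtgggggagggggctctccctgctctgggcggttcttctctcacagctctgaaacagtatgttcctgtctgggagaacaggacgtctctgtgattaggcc
Ms4a7: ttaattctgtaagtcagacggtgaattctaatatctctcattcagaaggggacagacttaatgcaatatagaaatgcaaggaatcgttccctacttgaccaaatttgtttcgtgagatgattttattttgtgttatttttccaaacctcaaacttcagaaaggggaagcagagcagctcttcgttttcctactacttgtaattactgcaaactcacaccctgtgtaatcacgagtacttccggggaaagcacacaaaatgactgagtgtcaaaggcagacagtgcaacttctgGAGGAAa
GAGGAA stood at position -30 from the start site in C1qb and at 43 in Ms4a7, and its reverse complement began at -193 in C1qc. TGCTGA stood at -131 in C1qb. Of 32851 promoters of 300 bases, 28.3% held GAGGAA and 19.5% held TGCTGA on either strand, so these matches are common and serve as a description. The RefSeq start of C1qc lies 151 bases inside the deposited gene, that of C1qb 13 bases upstream of it, and that of Ms4a7 coincides with it.

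Per length, as TPM, which divides reads by transcript length, C1qb and C1qa had the highest levels of the 9 genes in dextrose lungs and Fcgr1 the lowest. The median TPM level over the 9 dextrose libraries was 62.8 for C1qb, 54.2 for C1qa, 52.8 for Ly6c2, 36.7 for Cd14 and 33.9 for C1qc. It was 16.9 for Ccr2, 10.4 for Cx3cr1, 7.93 for Ms4a7 and 6.93 for Fcgr1. The ranges of each pair of neighbours in this order overlapped. The C1q protein is built from equal numbers of the A, B and C chains, and the 3 transcripts can be compared as ratios of TPM levels over all 36 libraries. The ratio was 1.26 at the median (0.998 to 1.73) for C1qb over C1qa and 1.62 (1.37 to 2.00) for C1qa over C1qc.

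In 14.5% of the 50-base windows of its transcripts, Ly6c2 is identical to other genes, among them its relative Ly6c1, and Cx3cr1 is overlapped on the opposite strand by Gm33858. The deposited counts, as CPM, and the deposited TPM values correlated across the 36 libraries with r = 0.48 for Ly6c2, 0.63 for Cx3cr1 and 0.79 for Ccr2 on log scales, against 0.90 to 0.98 for the other 6 genes. Levels below are CPM, reads of a gene per 1e6 reads of the library after TMM scaling, unless TPM is named. Ly6c2 and Cx3cr1 should be read with that uncertainty. The other 5 are spread over the genome: Ly6c2 (ENSMUSG00000022584) lies on chromosome 15 at 75108158-75111970, Ccr2 (ENSMUSG00000049103) on chromosome 9 at 124101950-124113557, Cx3cr1 (ENSMUSG00000052336) on chromosome 9 at 119901616-120068283, Fcgr1 (ENSMUSG00000015947) on chromosome 3 at 96282909-96293969 and Cd14 (ENSMUSG00000051439) on chromosome 18 at 36725074-36726736, with Ccr2 on the plus strand and the others on the minus strand.

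Total counts ran from 16154696 to 23808264 per library, with 80566751 in replicate 2 of S at day 7. Lung epithelial markers summed to between 48353 and 80141 CPM and endothelial markers to between 3099 and 4540 CPM, as in lung tissue. Several libraries stood apart in ways that touch the results. Replicate 1 of US at day 1 had a summed neutrophil marker level of 835.7 CPM, against 227.8 and 294.3 CPM in its group and 160.8 to 231.7 CPM in dextrose lungs of day 1, and the lowest T and NK cell sum of all, 74.1 CPM. Replicate 3 of US at day 28 had the highest T and NK cell sum, 475.4 CPM, against 252.9 and 231.1 CPM in its group. The results below that rest on them are given with and without them, except where stated.

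**Figure D1:**
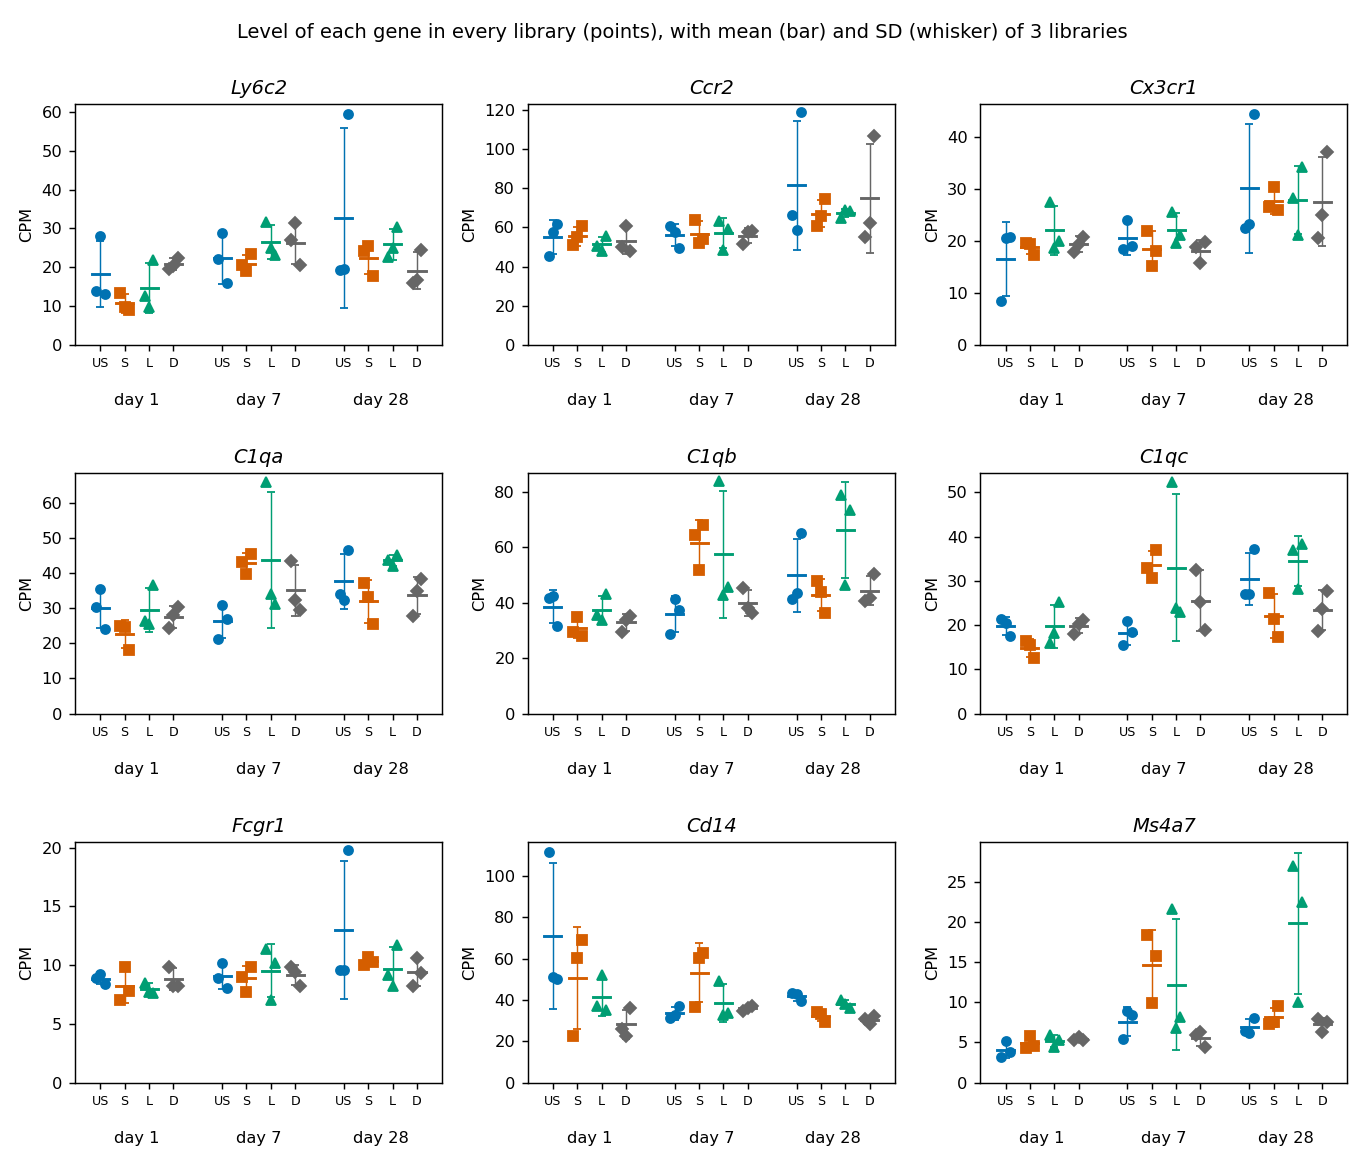
Level of each of the 9 genes in CPM (vertical axis, linear, from 0) in every library, grouped by day and, within a day, by US, S, L and D; bars and whiskers give the mean and SD of 3 libraries. Ms4a7 reached 18.4 CPM in S lungs at day 7 and 27.0 CPM in L lungs at day 28, while no dextrose library exceeded 7.87 CPM; single high libraries are visible for Cd14 in US at day 1 and for Ly6c2 in US at day 28.

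The first comparison set exposed lungs against dextrose lungs of the same day. Ms4a7 rose after S sheets at day 7 and after L sheets at day 28, and no other member passed the threshold of an adjusted p under 0.05 in any of the 9 comparisons (edgeR's quasi-likelihood test, adjusted over 16903 genes). At day 1, 0 of 9 members were called after US, S and L, where 0.0887%, 0.0473% and 0.0237% of all genes were called in either direction. At day 7, the count was 0 of 9 after US (2.09% of all genes), 1 of 9 after S (0.45%) and 0 of 9 after L (0.154%). At day 28, it was 0 of 9 after US (0.0237%), 0 of 9 after S (0.237%) and 1 of 9 after L (2.15%). With so few genes called overall in most comparisons, the members' counts say little beyond Ms4a7. Before adjustment, 12 of the 81 tests had p under 0.05. The share of all genes under 0.05 was 16.1%, 21% and 4.94% at day 1, 25.7%, 9.33% and 4.87% at day 7 and 6.02%, 9.87% and 16.7% at day 28 (US, S and L in that order), so the members' count is near that of all genes. DESeq2 called 3 of 81, adding Cd14 after US at day 1. The median log2 difference of the 9 members from dextrose was 0.29 after S and 0.29 after L at day 7 and 0.37 after L at day 28, where the median of all genes tested was -0.01, 0.00 and 0.00. In the other 6 comparisons the members' median lay between -0.10 and 0.17.

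**Figure D2:**
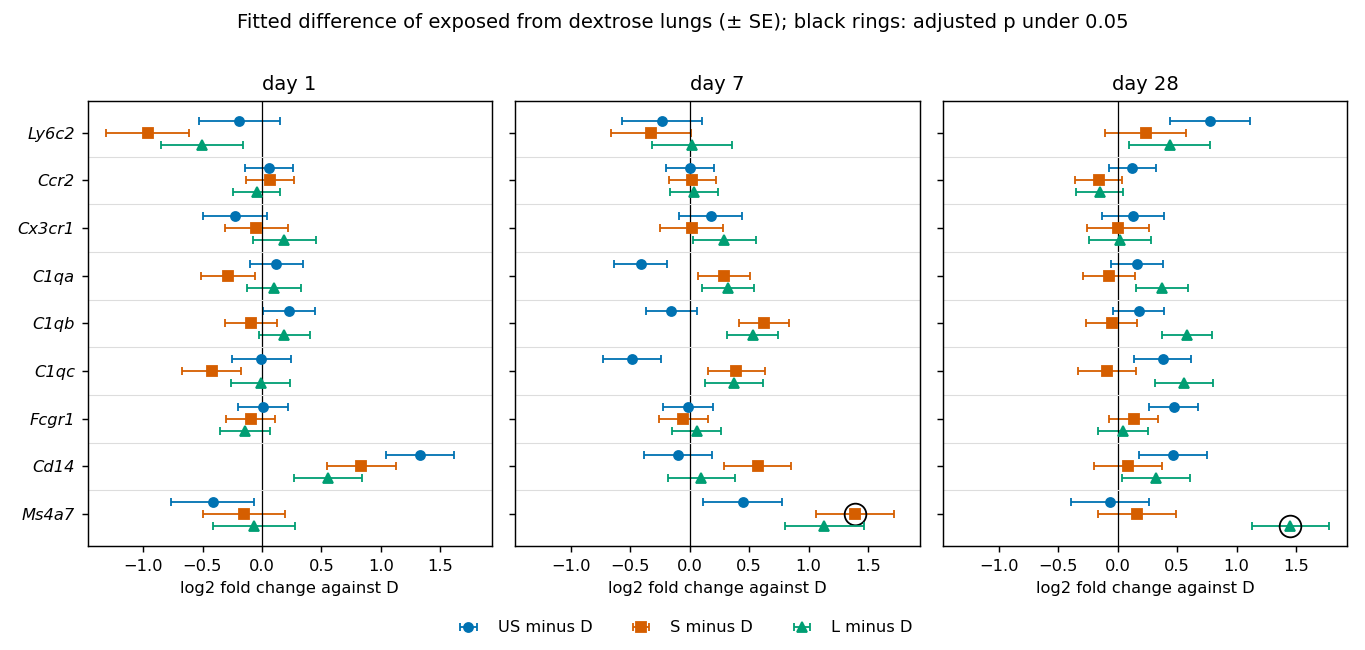
Fitted log2 fold change of each gene in exposed over dextrose lungs (horizontal axis, ± SE) at days 1, 7 and 28 for US, S and L sheets, from 3 libraries a group; a black ring marks an adjusted p under 0.05. Only Ms4a7 is ringed, after S at day 7 (1.39) and after L at day 28 (1.45). The estimates of Ccr2 and Cx3cr1 are at most 0.29, and the interval of Cx3cr1 after L at day 7 ends just above 0.

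Among the receptors that guide monocytes, Ccr2, the receptor for Ccl2, had small differences between exposed and dextrose lungs in every comparison. Its smallest p was for S at day 28, with 60.9, 65.7 and 74.6 CPM in S lungs, against 55.1, 62.4 and 107.1 CPM in D lungs. The groups overlapped, and dextrose replicate 3 was above every S library. The fitted log2 difference was -0.16 ± 0.20 (adjusted p = 0.83, edgeR) and 0.19 ± 0.19 without that library. Over the 9 comparisons the log2 difference of Ccr2 ran from -0.16 to 0.12, with an SE of 0.20 throughout. Cx3cr1, the receptor of the membrane-bound chemokine fractalkine, was nearest to a difference after L at day 7. It had 25.6, 19.5 and 21.1 CPM in L lungs, against 18.8, 15.7 and 19.7 CPM in D lungs. The groups overlapped by a narrow margin, and the log2 difference was 0.29 ± 0.27 (adjusted p = 1.00). On the log2(TPM + 1) and log2(TPM + 0.1) scales the estimate for this contrast reached 0.95 without being called.

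Ccl2, the main ligand of Ccr2, and Cx3cl1, the ligand of Cx3cr1, were looked at for their role as partners, outside the rule for named genes. Ccl2 had 19.9, 1.75 and 5.27 CPM in US lungs at day 1, against 1.06, 0.532 and 1.03 CPM in D lungs. All US libraries were above all D libraries, and the spread within US was wide. The log2 difference was 3.35 ± 0.76 (adjusted p = 0.058), followed by 2.67 ± 0.76 after S (adjusted p = 0.14) and 1.74 ± 0.78 after L (adjusted p = 0.97), so none was called. Without replicate 1 of US, a setting added after seeing the data, the first of these was 2.01 ± 0.73 (adjusted p = 0.55). Cx3cl1 differed from dextrose by no more than 0.26 on the log2 scale in any comparison. Of the 12 monocyte-attracting ligands, growth factors and their receptors, none was called except Csf2ra, a receptor chain for the growth factor GM-CSF, which rose after L at day 28. It had 25.8, 21.3 and 26.2 CPM in L lungs, against 12.7, 14.8 and 15.1 CPM in D lungs, a log2 difference of 0.78 ± 0.15 (adjusted p = 0.0029).

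Ly6c2 encodes the Ly6C antigen of inflammatory monocytes, and its lowest group was S at day 1. It had 13.4, 9.58 and 8.97 CPM in S lungs at day 1, against 19.6, 20.3 and 22.4 CPM in D lungs. Every S library was below every D library, as for 15.2% of all genes in this comparison, and C1qc was the only other member of which this held. The log2 difference of Ly6c2 was -0.96 ± 0.35 (adjusted p = 0.17), and it was called only when the fit was limited to both groups (adjusted p = 0.020). On the log2(TPM + 1) scale the difference did not pass the test and was much smaller (-0.20), with overlapping TPM levels of 36.7, 38.2 and 61.1 in S lungs, against 49.1, 52.8 and 51.1 in D lungs. T and NK cell markers summed to 216.2, 127.3 and 125.95 CPM in these S libraries, against 228.1, 252.6 and 226.6 CPM in the D libraries, and B cell markers to 239.0, 127.9 and 152.5 CPM, against 238.3, 300.0 and 255.8 CPM. Replicates 2 and 3 of S were thus low in Ly6c2 and in both lymphocyte sums, and the part of these cells in the result was not tested. Ly6c1, which shares sequence with Ly6c2, had 240.1, 410.7 and 437.5 CPM in S lungs, against 256.9, 233.3 and 253.6 CPM in D lungs. The part of shared reads in the Ly6c2 counts was not tested either.

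Ly6c2 and Fcgr1 had their highest levels in a single library, replicate 3 of US at day 28. Ly6c2 had 19.1, 19.5 and 59.4 CPM in US lungs, against 16.01, 16.7 and 24.5 CPM in D lungs. Fcgr1, the high-affinity receptor for IgG that macrophages use to take up antibody-coated particles, had 9.61, 9.61 and 19.8 CPM, against 8.25, 10.6 and 9.35 CPM. In both genes replicates 1 and 2 of US lay within the dextrose range, and replicate 3 alone was above it. The log2 differences were 0.78 ± 0.34 for Ly6c2 and 0.47 ± 0.20 for Fcgr1 (adjusted p = 0.78 for both), and 0.02 ± 0.30 and 0.03 ± 0.18 without replicate 3. The same library was also the highest of all 36 for Ccr2 (119.3 CPM) and Cx3cr1 (44.4 CPM), and for the T and NK cell sum. The part of those cells was not tested. Among the 10 Fc receptor partners of Fcgr1, from the signalling chain Fcer1g to the kinase Syk, none was called in any of the 9 comparisons with dextrose, and their median log2 difference was at most 0.34, after L at day 28.

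**Figure D3:**
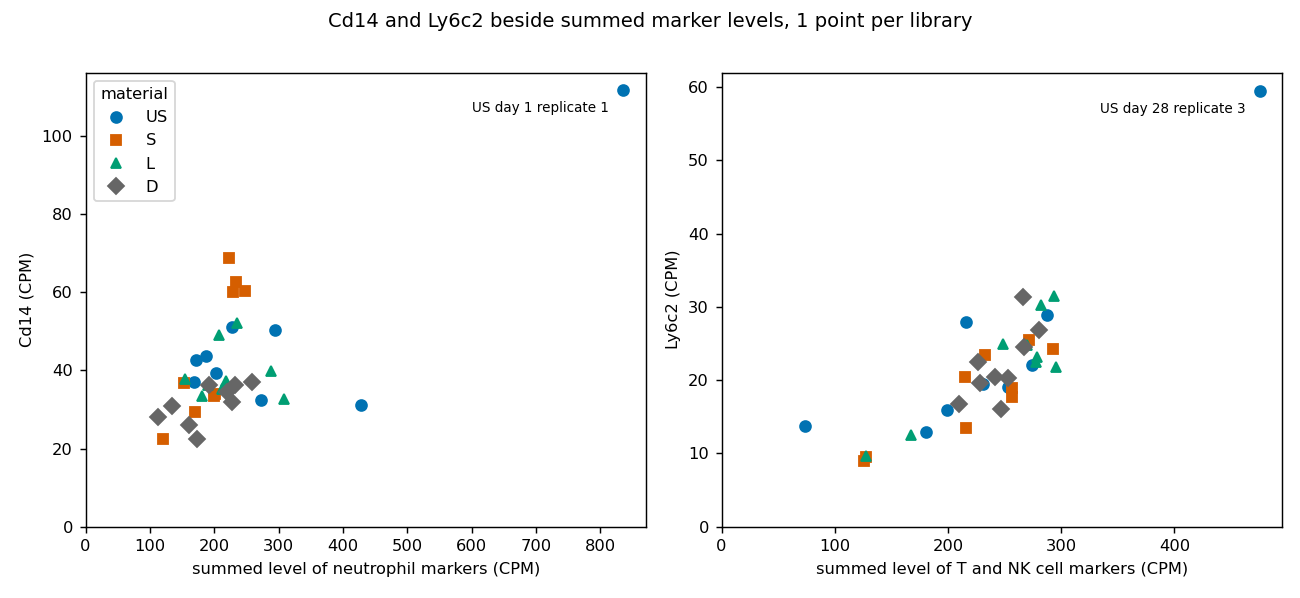
Left: Cd14 level against the summed level of 13 neutrophil markers; right: Ly6c2 level against the summed level of 16 T and NK cell markers, all in CPM on linear axes from 0, with 1 point for each of the 36 libraries and the shape and colour giving the material. Replicate 1 of US at day 1 lies alone at 835.7 CPM of neutrophil markers and 111.7 CPM of Cd14, and replicate 3 of US at day 28 alone at 475.4 CPM of T and NK cell markers and 59.4 CPM of Ly6c2.

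Cd14, the co-receptor that hands bacterial lipopolysaccharide to the receptor Tlr4, was highest at day 1 after US sheets. It had 111.7, 51.0 and 50.2 CPM in US lungs, against 25.9, 22.5 and 36.2 CPM in D lungs. All US libraries were above all D libraries, as for 8.71% of genes, and replicate 1 of US stood well above the others. The log2 difference was 1.33 ± 0.29 and stood just short of the threshold (adjusted p = 0.054). DESeq2 called it (adjusted p = 0.0028), as did edgeR when all genes with reads were kept (0.0077). The other 5 alternatives did not call it, with adjusted p up to 0.49. They were RLE size factors, the replicate number as a block, limma on both TPM scales and only the groups compared. Over the edgeR fits that left out 1 library its adjusted p ran from 0.0050 to 0.47. The highest of these came without replicate 1 of US, where the log2 difference was 0.84 ± 0.27. That library also held the high neutrophil sum, and Il1r2, a decoy receptor that neutrophils carry, was the only one of 11 tested neutrophil markers called in this comparison (log2 difference 4.35 ± 0.85, adjusted p = 0.035). It had 105.2, 3.28 and 7.13 CPM in US lungs, against 1.304, 1.71 and 2.58 CPM in D lungs, and without replicate 1 the difference was 1.47 ± 0.60 and no longer called (adjusted p = 0.60). The part of neutrophils in the Cd14 level was not tested.

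After the other sheets Cd14 showed a similar picture at day 1 with more overlap. S lungs had 22.4, 60.3 and 68.7 CPM and L lungs 37.2, 52.2 and 35.2 CPM, with log2 differences from D of 0.84 ± 0.29 (adjusted p = 0.16) and 0.56 ± 0.29 (adjusted p = 0.98). Replicate 1 of S had the lowest Cd14 level of all 36 libraries, while replicates 2 and 3 were above every dextrose library. Without replicate 1 of S the log2 difference was 1.19 ± 0.25 and was called (adjusted p = 0.017). At day 7 S lungs had 36.7, 60.1 and 62.7 CPM, against 34.5, 36.1 and 37.0 CPM in D lungs, with replicates 2 and 3 of S above the dextrose range (log2 difference 0.57 ± 0.28, adjusted p = 0.54). At day 28 all US libraries (43.6, 42.8 and 39.3 CPM) and all L libraries (39.9, 37.8 and 36.3 CPM) were above all D libraries (30.9, 28.1 and 32.0 CPM), with log2 differences of 0.46 ± 0.29 (adjusted p = 0.89) and 0.32 ± 0.29 (adjusted p = 0.57). Non-overlap in this direction held for 7.25% of genes after US and 14.6% after L. None of the 14 endotoxin receptor partners, among them Tlr4, Ly96 and Myd88, was called against dextrose at any day.

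C1qa, C1qb and C1qc, the chains of C1q, had positive log2 differences from dextrose after S and L and negative ones after US at day 7, and none of their 27 tests against dextrose was called. C1qb had 64.5, 51.8 and 67.9 CPM in S lungs at day 7, against 45.2, 38.1 and 36.2 CPM in D lungs. All S libraries were above all D libraries, as for 8.51% of genes in this comparison, and the log2 difference was 0.62 ± 0.21 (adjusted p = 0.23). C1qa differed by 0.29 ± 0.22 and C1qc by 0.39 ± 0.24 in the same lungs. After US at day 7, C1qa had 21.1, 30.9 and 26.9 CPM, against 43.3, 32.4 and 29.4 CPM in D lungs. The groups overlapped only through replicate 2 of US and replicate 3 of D, and the log2 difference was -0.41 ± 0.22 (adjusted p = 0.24).

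At day 28 the C1q genes were highest after L sheets. C1qc had 36.9, 28.1 and 38.4 CPM in L lungs, against 18.7, 23.7 and 27.8 CPM in D lungs. C1qa had 43.6, 42.1 and 45.0 CPM, against 27.8, 34.8 and 38.3 CPM. In both genes all L libraries were above all D libraries. This held for 4 of 9 members in this comparison, namely C1qa, C1qc, Cd14 and Ms4a7, and for 14.6% of all genes. The log2 differences were 0.37 ± 0.22 for C1qa, 0.58 ± 0.21 for C1qb and 0.56 ± 0.24 for C1qc (adjusted p = 0.38, 0.15 and 0.24 in that order). L lungs at day 7 were split: replicate 1 had the highest C1qa (65.9 CPM), C1qb (83.8 CPM) and C1qc (52.3 CPM) of all 36 libraries, while replicates 2 and 3 had 34.0 and 31.1 CPM of C1qa, within the dextrose range. Without replicate 1 the log2 difference of C1qa was -0.10 ± 0.20, against 0.32 ± 0.22 with it.

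Partners of C1q were counted as a list. Of 18 complement partners, which include the proteases C1ra and C1s1, the downstream components C2, C3 and C4b and the C1q-binding proteins Cd93 and Calr, 15 were expressed enough to be tested. Only Calr was called against dextrose, and it fell after L at day 28, with 454.9, 461.9 and 463.7 CPM in L lungs, against 678.4, 660.3 and 642.2 CPM in D lungs (log2 difference -0.52 ± 0.14, adjusted p = 0.047). Of the 3 partners left out, C1rb had no reads in 21 libraries, C1s2 in 3 and C4bp in 1.

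Ms4a7, a membrane protein of macrophages derived from monocytes, showed the clearest differences of the 9 genes. At day 7 it had 18.4, 9.90 and 15.8 CPM in S lungs, against 5.92, 6.31 and 4.45 CPM in D lungs. All S libraries were above all D libraries. Ms4a7 rose 2.62-fold (log2 1.39 ± 0.33, adjusted p = 0.048), where 0.408% of all genes were called higher. The call stood close to the threshold: it was lost in 27 of the 36 fits that left out 1 library, with adjusted p from 0.013 to 0.22 and log2 differences from 1.20 to 1.63. The largest of these p-values came without replicate 3 of S at day 7 (0.22). The call was also lost with the replicate number as a block and with limma on both TPM scales (adjusted p up to 0.13).

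At day 28 Ms4a7 had 27.0, 10.0 and 22.5 CPM in L lungs, against 7.87, 6.27 and 7.57 CPM in D lungs. All L libraries were above all D libraries, replicate 2 by the smallest margin. Ms4a7 rose 2.74-fold (log2 1.45 ± 0.33, adjusted p = 0.014), where 1.25% of all genes were called higher. The call was lost without D replicate 2 (adjusted p = 0.084), without L replicate 1 (0.10) and without L replicate 3 (0.079), where the log2 difference still ran from 1.18 to 1.37, and on the TPM scale (log2 1.22, adjusted p = 0.067). L lungs at day 7 had 21.6, 6.78 and 8.19 CPM, again all above D, as for 4.56% of genes. The log2 difference there was 1.13 ± 0.33 (adjusted p = 0.39), and 0.44 ± 0.30 without replicate 1, the library that also had the highest C1q levels. After US sheets the log2 difference of Ms4a7 was -0.42, 0.45 and -0.07 at days 1, 7 and 28. At day 1 all US libraries (3.21, 5.19 and 3.82 CPM) were below all D libraries (5.28, 5.67 and 5.31 CPM), as for 7.13% of genes (adjusted p = 0.57).

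Genes of macrophages other than the 9 members were called mainly in the same comparison, L against D at day 28. Of 18 interstitial macrophage genes, 3 rose there and none fell, where 2.15% of all genes were called and 1.25% higher. None of the 18 was called in the other 8 comparisons with dextrose. Cd68, a lysosomal protein of all macrophages, had 151.8, 82.6 and 146.7 CPM in L lungs, against 35.96, 49.6 and 50.5 CPM in D lungs (log2 difference 1.49 ± 0.21, adjusted p = 1.0e-04). C3ar1, the receptor for the complement fragment C3a, had 22.5, 9.25 and 20.01 CPM, against 6.83, 5.19 and 5.59 CPM (1.56 ± 0.32, adjusted p = 0.0053). Itgax, the integrin CD11c, which alveolar macrophages and dendritic cells carry too, differed by 0.99 ± 0.18 (adjusted p = 0.0017). In each of the 3 genes, as in Ms4a7, replicate 2 was the lowest L library.

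Some markers of alveolar macrophages rose in the same lungs, where 1.25% of all genes were called higher. Of 14 tested, 3 rose after L at day 28: Fabp4, a fatty acid carrier that fat cells share (log2 difference 2.19 ± 0.29, adjusted p = 4.6e-05), the protease Ctsk (2.12 ± 0.39, 0.0024) and the proton pump subunit Atp6v0d2 (1.33 ± 0.26, 0.0044). Fabp4 also rose after S at day 28 (1.55 ± 0.29, adjusted p = 0.011). The summed level of the alveolar macrophage markers was 1974, 1518 and 2228 CPM in L lungs at day 28, against 1689, 1654 and 1621 CPM in D lungs, and that of the interstitial macrophage genes 1042, 865.6 and 1107 CPM, against 836.5, 854.5 and 929.7 CPM. The part of either cell type in the Ms4a7 level was not tested. Both macrophage sums weigh abundant genes most. Over the 36 libraries the highest median was that of Chil3 in the alveolar list (1320 CPM) and of Lyve1 in the interstitial list (298.2 CPM). None of the 18 blood monocyte genes, 16 T and NK, 8 B, 10 dendritic and 8 lung epithelial markers was called against dextrose at any day. Summed, B cell markers had 346.3, 314.1 and 379.4 CPM in L lungs at day 28, against 281.8, 205.6 and 200.3 CPM in D lungs, and T and NK cell markers 277.9, 270.2 and 281.9 CPM, against 246.9, 209.5 and 267.1 CPM. For both sums all L libraries were above all D libraries, and their part in the Ms4a7 level was not tested. No call was made for red blood cell and heart markers either, while the endothelial genes Egfl7 and Cldn5 (-1.03 for Cldn5) and the fat cell gene Adig (-1.51) fell on the log2 scale after US at day 7. Clock genes, whose level follows the hour of the day, were called in several comparisons: of 17, 8 rose and 5 fell after L at day 28, 10 rose and 2 fell after US at day 7, and 8 rose and 2 fell after L at day 7. Of all genes, 2.15%, 2.09% and 0.154% were called in these comparisons, in that order. The part of clock genes in the members' levels was not tested.

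Sheets of different size were also compared directly. Ms4a7 was higher after L than after US at day 28, with 27.0, 10.0 and 22.5 CPM in L lungs, against 6.44, 6.21 and 8.09 CPM in US lungs. All L libraries were above all US libraries, and the difference was 2.87-fold (log2 1.52 ± 0.32, adjusted p = 0.017). This was the only one of 81 such tests called, where 0.515% of all genes were called in either direction and 0.349% higher, and 10.3% had all L above all US libraries. It was lost without L replicate 1 (adjusted p = 0.16), L replicate 3 (0.10), US replicate 1 (0.091) or US replicate 2 (0.098), with log2 differences from 1.25 to 1.49 there, and when the fit was limited to both groups (0.058). With limma it was lost on both TPM scales (adjusted p up to 0.15). Cd68 (log2 difference 1.19) and Itgax (0.88) of the interstitial list, and Ctsk (1.96) and Fabp4 (1.32) of the alveolar list, were called in the same direction. Ms4a7 was also 1.29 ± 0.32 higher in L than in S lungs on the log2 scale, without being called (adjusted p = 0.17), and was called there by DESeq2. C1qa, C1qc, Cd14 and Ms4a7 had all L libraries above all S libraries at day 28, as had 5.06% of genes, where 0.0651% were called. Between S and US at day 28 no gene was called (0%), and Cd14 had all S libraries below all US libraries, as 7.21% of genes had.

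The C1q genes were also compared between sizes at day 7. C1qc had 32.9, 30.6 and 36.9 CPM in S lungs, against 15.4, 20.8 and 18.4 CPM in US lungs. Every S library was above every US library for C1qa, C1qb, C1qc and Ms4a7, 4 of 9 members, as for 9.34% of all genes. The log2 differences of S from US were 0.70 ± 0.22 for C1qa, 0.78 ± 0.21 for C1qb and 0.88 ± 0.24 for C1qc, with adjusted p of 0.24, 0.17 and 0.18, so none was called, where 0.142% of genes were. L lungs were above US lungs by similar amounts, 0.73 ± 0.22, 0.68 ± 0.21 and 0.86 ± 0.24 (adjusted p = 0.32 for each), with all L above all US libraries for each, as for 4.11% of genes, where 0.00592% were called. Without replicate 1 of L the difference of C1qa was 0.31, and without replicate 3 it was 0.94 and called (adjusted p = 0.039). Between L and S at day 7 no member was called, where 0.154% of genes were. At day 1 no member was called between sizes, where 0.0177% of genes were for S against US and 0% for L against US and for L against S. C1qc had all S below all US libraries there, as 8.39% of genes had, and C1qa all L above all S libraries, as 6.14% had. Ccr2 differed by at most 0.28 between any 2 sizes and Cx3cr1 by at most 0.41 on the log2 scale, with no call.

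Levels were then followed over time within each material. In dextrose lungs no member was called between days by edgeR or DESeq2, and 3 of 27 tests had p under 0.05 before adjustment, where 24.2%, 5.4% and 34.9% of all genes had at day 7 against day 1, day 28 against day 1 and day 28 against day 7. After adjustment the percentage of all genes called was 0% at day 7 against day 1, 0.0769% at day 28 against day 1 and 15.6% at day 28 against day 7. At day 7 against day 1, 8 of 9 members had a positive log2 difference in dextrose lungs, as had 49.6% of all genes. The members' median was 0.28. At day 28 against day 1, 8 of 9 members were positive with a median of 0.29, as were 49.1% of all genes. Ccr2 had the smallest unadjusted p in dextrose lungs, with 50.2, 60.6 and 47.9 CPM at day 1, 51.4, 57.7 and 58.4 CPM at day 7 and 55.1, 62.4 and 107.1 CPM at day 28.

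In S lungs 5 of 9 members rose at day 7 against day 1 and none fell, in a comparison in which 41.4% of all genes were called and 19.7% were called higher. The 5 genes were C1qa, C1qb, C1qc, Ms4a7 and Ly6c2. C1qc had 32.9, 30.6 and 36.9 CPM at day 7, against 16.4, 15.6 and 12.5 CPM at day 1, a 2.25-fold difference (log2 1.17 ± 0.25, adjusted p = 7.7e-04). C1qb had 64.5, 51.8 and 67.9 CPM, against 29.6, 34.96 and 28.1 CPM (0.99 ± 0.22, adjusted p = 0.0010). C1qa had 43.1, 39.6 and 45.4 CPM, against 24.9, 24.8 and 18.05 CPM (0.92 ± 0.22, adjusted p = 0.0023). In all 3 genes the calls held in all 36 fits that left out 1 library.

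Other sums differed between the same S libraries. The 18 interstitial macrophage genes summed to 849.0, 809.0 and 841.9 CPM at day 7, against 987.2, 1298 and 1233 CPM at day 1, and the 18 complement partners of C1q to 2801, 2762 and 2701 CPM, against 3769, 4766 and 4239 CPM. Both sums were lower at day 7 in every library, while the C1q genes were higher. Such sums weigh abundant genes most and do not show what most genes of a list did. Lyve1 had the highest median of the interstitial list over the 36 libraries, 298.2 CPM (167.6 to 891.7). C3 had the highest of the complement list, 908.0 CPM (442.1 to 1664). T and NK cell markers summed to 215.0, 256.8 and 232.3 CPM at day 7, against 216.2, 127.3 and 125.95 CPM at day 1, and B cell markers to 282.7, 293.5 and 238.2 CPM, against 239.0, 127.9 and 152.5 CPM. The clock genes summed to 752.4, 898.1 and 778.9 CPM, against 1669, 1292 and 1279 CPM. The part of these in the members' levels was not tested.

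Ms4a7 had 18.4, 9.90 and 15.8 CPM in S lungs at day 7, against 4.27, 5.77 and 4.59 CPM at day 1 (log2 1.58 ± 0.33, 2.99-fold, adjusted p = 7.8e-04). Ly6c2 had 20.4, 18.9 and 23.4 CPM at day 7, against 13.4, 9.58 and 8.97 CPM at day 1 (0.97 ± 0.35, adjusted p = 0.027), and its call was lost without S day 1 replicate 2 (0.085), S day 1 replicate 3 (0.099) or S day 7 replicate 3 (0.075). On the log2(TPM + 1) scale the Ly6c2 difference was 0.10 (adjusted p = 0.81). At day 28 Ly6c2 had 24.2, 25.4 and 17.8 CPM in S lungs and was called against day 1 (1.08 ± 0.35, adjusted p = 0.049), where 9.4% of all genes were called and 4.24% higher. That call was lost in 24 of 36 fits without 1 library, most clearly without S day 1 replicate 3 (adjusted p = 0.19), and on the TPM scale (0.37, adjusted p = 0.43).

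In L lungs Ms4a7 was called at both later days. It had 5.86, 4.38 and 5.26 CPM at day 1, 21.6, 6.78 and 8.19 CPM at day 7 and 27.0, 10.0 and 22.5 CPM at day 28. The medians went up with time. The difference from day 1 was 2.35-fold at day 7 (log2 1.24 ± 0.33, adjusted p = 0.029) and 3.83-fold at day 28 (1.94 ± 0.33, adjusted p = 0.0023). The day 28 call held in all 36 fits without 1 library. The day 7 call was lost without L day 7 replicate 1 (0.54, adjusted p = 0.32), L day 1 replicate 1 (0.19) or L day 1 replicate 2 (0.21), and on the log2(TPM + 1) scale (0.81, adjusted p = 0.11) and the log2(TPM + 0.1) scale (0.89, adjusted p = 0.10).

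C1qc was the other member called in L lungs, with 52.3, 23.8 and 22.9 CPM at day 7, against 15.9, 18.2 and 25.2 CPM at day 1 (0.74 ± 0.24, adjusted p = 0.047). The groups overlapped, the call was lost in 20 of 36 fits without 1 library, and without L day 7 replicate 1 the difference was 0.25. It was also lost on the log2(TPM + 1) scale (0.54, limma's adjusted p = 0.098), on the log2(TPM + 0.1) scale and with the replicate number as a block. In total 2 of 9 members rose in L lungs at day 7 against day 1, where 11.2% of all genes were called and 3.38% higher, and 1 of 9 at day 28 against day 1, where 1.12% were called and 0.639% higher. DESeq2 also called C1qb at day 7 and C1qb and C1qc at day 28. Between days 28 and 7 no member was called in L, S or US lungs, where 0%, 0.426% and 0.887% of all genes were. Before adjustment, 1, 5 and 6 of 9 had p under 0.05 there, as had 7.55%, 16.7% and 13.2% of all genes.

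In US lungs Cd14 was the only member called over time. It had 111.7, 51.0 and 50.2 CPM at day 1, 31.0, 32.5 and 37.1 CPM at day 7 and 43.6, 42.8 and 39.3 CPM at day 28. Cd14 was lower at day 7 than at day 1 by 2.11-fold (log2 -1.08 ± 0.28, edgeR's adjusted p = 0.022). It was 1 of 9 members called, where 7.18% of all genes were called and 4.13% lower. The call was lost without US day 1 replicate 1 (-0.59, adjusted p = 0.27), US day 7 replicate 1 (0.084) or US day 7 replicate 2 (0.084), and on both TPM scales (0.071). At day 28 against day 1, no member was called in US lungs by edgeR, where 1.75% of all genes were, and 7 of 9 had an unadjusted p under 0.05, as had 16.9% of all genes. DESeq2 called Cx3cr1 there, with 22.4, 23.3 and 44.4 CPM at day 28, against 8.35, 20.5 and 20.8 CPM at day 1. Replicate 3 of day 28 and replicate 1 of day 1 were the highest and lowest of all 36 libraries for Cx3cr1. Results of this comparison without these libraries are not given here.

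Whether the difference from dextrose itself changed between days was tested with an interaction term, which needs no comparison of calls. None of the 81 tests on the members was called by edgeR, while 12 had an unadjusted p under 0.05. Over all genes the share under 0.05 ran from 3.33% to 21.1% in the 9 interactions, so that count too is near the background. For day 7 minus day 1, day 28 minus day 1 and day 28 minus day 7, in that order, 0.136%, 0.0473% and 0.136% of all genes were called for US, 0%, 0.195% and 0.0296% for S, and 0%, 0.243% and 0% for L. The largest estimates were for Ms4a7 and Cd14. The S effect on Ms4a7 was 1.54 ± 0.48 higher at day 7 than at day 1 on the log2 scale (adjusted p = 0.33), and the L effect was 1.52 ± 0.47 higher at day 28 than at day 1 (adjusted p = 0.21). The US effect on Cd14 was 1.43 lower at day 7 than at day 1 (log2 -1.43 ± 0.40, adjusted p = 0.12), and DESeq2 called it (adjusted p = 0.038). A larger effect at one day than at another is therefore not shown for any of the 9 genes by edgeR.

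The members were also compared with each other across the 36 libraries, after the mean of each group was subtracted, so that the values show which genes varied together among like-treated lungs. Of the 36 pairs, 33 had a positive r, and 23 were called after Benjamini-Hochberg adjustment over the 36 pairs (100000 permutations). The C1q genes were the closest: C1qa and C1qc had r = 0.94 and Spearman's rho = 0.91, C1qb and C1qc 0.88 and 0.88, and C1qa and C1qb 0.85 and 0.84. The adjusted permutation p was 7.2e-05 for each r, the smallest it can be here, and 1.2e-04 within groups. Without the 2 libraries farthest from the median the r values were 0.91, 0.84 and 0.80.

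Ms4a7 followed C1qb (r = 0.79, rho = 0.69, adjusted permutation p = 7.2e-05 and 0.0056 within groups, and r = 0.67 without 2 libraries). Ccr2 and Cx3cr1, the migration receptors, had r = 0.68 and rho = 0.58 (adjusted permutation p = 1.2e-04 and 0.018 within groups, and r = 0.56 without 2 libraries). Cd14 stood apart from the rest, with r between -0.39 and 0.19 against the other 8 genes. Its negative r with Cx3cr1 was -0.39 (rho = -0.28, adjusted permutation p = 0.031) and became -0.24 without 2 libraries, so that it rests on those. With permutations within groups this pair was not called (adjusted permutation p = 0.0765). On the TPM scale, again with free permutation, 18 pairs were called. Libraries share depth and the mix of cells in each piece, and the part of that mix in these correlations was not tested.

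**Figure D4:**
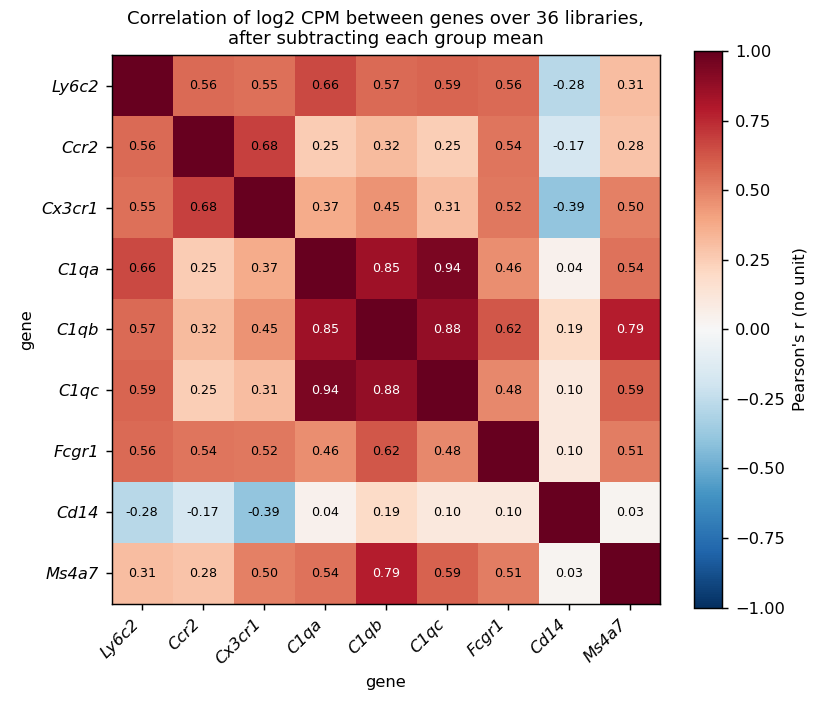
Pearson's r (colour and number, no unit) between the log2 CPM of each pair of the 9 genes over 36 libraries, after the mean of each of the 12 groups was subtracted. The C1q genes form a block of 0.85 to 0.94, C1qb and Ms4a7 reach 0.79, and the Cd14 row is pale or blue.

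A search over 14710 genes for those whose log2 CPM was most like each member's over the 36 libraries gave sets with few genes in common. For Ms4a7 the nearest were Glipr1 (r = 0.91), AF251705, Ctss, Rnf128 and Hpgds. For the mean of the C1q genes they were Apoe (0.85), Fcer1g, Cotl1, Cyba and Pld3. For Cd14 they were Socs3 (0.87), Lcn2, Lrg1, Klhdc8a and Hmox1. For Ly6c2 they were Psmb8 (0.94), I830127L07Rik, Plac8, Epsti1 and H2-T23. For Ccr2 they were Cxcr6 (0.78), Ms4a6c, Ptpn7, Tgtp1 and Ikzf1, for Cx3cr1 Ikzf1 (0.83), Tnfsf10, Spn, Pip4k2a and Ptprc, and for Fcgr1 Ms4a6c (0.78), Mnda, Irgm1, Ifit1 and Gm4841. These r values include the differences between groups and are a description over 36 libraries, with no test.

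The 9 genes also differed in how steady they were. From the lowest to the highest of the 36 libraries, the CPM level spanned 8.41-fold for Ms4a7, 6.63-fold for Ly6c2, 5.32-fold for Cx3cr1 and 4.98-fold for Cd14, and 2.63-fold for Ccr2 at the other end. Within groups the SD of log2 CPM was 0.44 for Ly6c2, 0.42 for Ms4a7 and 0.38 for Cd14, against a median of 0.21 over all genes tested.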

How the data were processed

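Gene counts were deposited as 1 table for all 36 libraries, and per-library tables hold TPM, FPKM and Coverage values, per the file headers. Libraries were poly-A selected and stranded, and RNA with an integrity number below 8 was discarded, per the labels' protocols. The submitters' processing notes name bcl2fastq 2.19.1.403, CASAVA, STAR 2.5.1b, featureCounts 1.5.1, StringTie 1.3.3 and the builds GRCh37 and GRCm38. Which gene annotation release was used, and whether counting used strand, is not given in the sources used here. The deposited FPKM values and the deposited coverage signal were not used. From the deposited counts, edgeR 4.0.16 (R 4.3.3) fitted 1 quasi-likelihood model with a mean for each of the 12 groups, TMM scaling and filterByExpr, and p-values were adjusted by Benjamini-Hochberg over 16903 genes within each of 39 contrasts. CPM values use the TMM library sizes. The deposited TPM values give levels between genes and an alternative test with limma 3.58.1. Other alternatives were DESeq2 1.42.0, its size factors, no filter, the replicate number as a block, only the groups compared and leaving out each library. Correlations used residuals from group means and 100000 permutations, free over all 36 libraries and, as an added setting, within groups. Promoter sequences are from RefSeq, where 7 of the 9 members matched. Every member was described in each comparison, other lists by their called members, at most 3 per comparison. The members, lists and tests were chosen with earlier results of these data known. The scripts were tested on simulated data. No 2 libraries of a group agreed within counting noise (chi-square per degree of freedom of at least 6.16). Multiwalled carbon nanotubes and a later time, which the labels mention, were not analysed here.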

Additional observations from a re-analysis of the deposited data

Results flagged for a closer look

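Ms4a7 was the only gene of the 9 for which the exposure effect differed between sheet sizes by a test of the difference itself. At day 28 the log2 difference of L from US lungs was 1.52 ± 0.32 (edgeR's quasi-likelihood test, adjusted p = 0.017). All 3 L libraries were above all 3 US libraries, as for 10.3% of genes. Both effects are measured against the same dextrose libraries, which cancel in this contrast. The call was lost on both TPM scales, with only the groups compared and in 4 of the 36 fits without 1 library.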

How the results depend on the processing

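The 38 results on single genes were each redone in 36 fits without 1 library and under 6 or 7 other settings. Of the values obtained, 1493 kept their direction and side of the threshold, 10 gained a call, 5 changed sign and the remainder lost theirs. Against dextrose, 2 calls became 1 with the replicate block and 0 and 0 with limma on log2(TPM + 1) and log2(TPM + 0.1), and 0 to 3 without 1 library. Between sizes, 1 call became 2 without the filter, 2 with DESeq2, 0 and 0 with limma on TPM and 0 with only the groups compared, and 0 to 4 without 1 library. Between days, 10 calls became 14 with DESeq2, 12 without the filter, 11 with RLE size factors, 8 with the replicate block, 5 and 5 with limma on TPM, and 7 to 17 without 1 library. For the change of the exposure effect between days, 0 calls became 1 with DESeq2 and stayed at 0 without any 1 library. Of the correlated pairs, 23 became 22 without replicate 2 of S at day 7, 18 on log2(TPM + 1) and 17 with permutations within groups. The cause was not tested. The log2 differences that changed sign were small. For Ccr2, S against D at day 28 gave 0.00072 with limma on log2(TPM + 0.1) and -0.33 to 0.19 without 1 library, S against US at day 28 gave -0.47 to 0.098, and the change of the S effect from day 1 to 28 gave -0.39 to 0.12. For Fcgr1, L against US at day 28 gave -0.59 to 0.0094. The positive ends came without replicate 3 of D or of US at day 28. No pairing of libraries by the labels' replicate numbers was seen, though with 3 libraries a group this check cannot exclude one. The mean correlation of deviations was -0.0079 for same-numbered pairs and 0.0038 for differently numbered ones. Of 198 same-numbered pairs, 45 were over 0.1, and 9 of 36 libraries correlated best with their own number. With the replicate block the day 7 call of Ms4a7 after S was lost (adjusted p = 0.053), as were C1qc in L at day 7 against day 1 (0.060) and Ly6c2 in S at day 28 against day 1 (0.058). Member counts started at 65 reads per library, for Ms4a7.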
